A study of Mus musculus with 6 samples.

Results

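Bulk mRNA sequencing of mouse cortical bone was examined for 10 genes of MHC class I antigen presentation and the immunoproteasome, B2m, H2-K1, H2-D1, Tap1, Tap2, Tapbp, Psmb8, Psmb9, Psmb10 and Nlrc5. They were chosen by name from the 32000 genes of the deposited table, and all 10 had enough counts to be tested. Male C57BL/6J mice, 18 months old, had received a high-fat diet (HFD, replicates 2, 3 and 4) or a control diet (CD, a chewing diet in the words of the labels, replicates 1, 2 and 4) for 12 months, which gave 3 libraries per diet. Whether the libraries are from different animals is not given in the labels, and the p-values therefore cover sample-to-sample spread that may be only technical. Strain, sex and age were the same in both diet groups, and no allele or transgene is named.

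Nucleated cells cut their own proteins into peptides and show them on the surface in the groove of MHC class I molecules, which CD8+ T cells and NK cells read. Each class I molecule pairs a heavy chain (H2-K1 and H2-D1 in this strain) with the light chain B2m. The TAP transporter brings the peptides into the endoplasmic reticulum, where tapasin helps to load them. Interferons exchange the catalytic subunits of the proteasome for the immunosubunits Psmb8, Psmb9 and Psmb10, and NLRC5 is the coactivator that drives class I transcription. These genes are active in most marrow leukocytes, many of which carry immunosubunits without stimulation.

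All 10 genes averaged higher in HFD than in CD libraries, with log2 fold changes of 0.19 (Tapbp) to 0.94 (Psmb8) and a median of 0.39. Over all 19831 genes tested the median was -0.03, and 47.5% had a log2 fold change above 0. The immunosubunits Psmb8, Psmb9 and Psmb10 and the transporter gene Tap1 had the largest differences, at 1.61- to 1.92-fold. None of the 10 passed the test: edgeR's quasi-likelihood test gave adjusted p-values of 0.476 to 0.840, and it called 0.0% of all genes in the higher and 0.0% in the lower direction. At an unadjusted edgeR p under 0.05, 3 of the 10 were higher, Psmb8, Psmb9 and Psmb10, beside 2.46% of all genes higher and 7.2% lower. This count of 3 became 0 when CD 1, CD 4, HFD 2 or HFD 3 was left out and 4 when CD 2 was. The shares of all genes in these smaller fits are not given, so whether the shifts are particular to the members cannot be read from them. DESeq2 also called 0 of the 10, the smallest adjusted p being 0.249, whereas it called 0.535% of all genes higher and 1.11% lower. Limma on log2(FPKM + 1) likewise called 0 of the 10 (smallest adjusted p 0.591), with 0.0602% of all genes called higher and 0.00669% lower. DESeq2 gave 3 members and limma 2 members with an unadjusted p under 0.05. The shares of all genes at that unadjusted threshold are not given for DESeq2 and limma.

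The libraries held 54.5 to 61.6 M counts (M, mega-counts). The libraries differed in their share of mitochondrially encoded counts and in their markers of other cells. The 13 mitochondrial protein genes took 15.5%, 15.6% and 38.6% of the counts in HFD 2, HFD 3 and HFD 4, against 37.9%, 15.3% and 28.1% in CD 1, CD 2 and CD 4. Bone markers were present in every library but differed widely: 8 summed osteoblast genes had 1505 to 7393 CPM in HFD and 6452 to 74170 CPM in CD libraries. The 5 osteocyte genes summed to 27.2 to 249.3 CPM in HFD and 134.7 to 682.0 CPM in CD libraries, and none of these bone markers was at 0. All 6 osteoclast markers were below CD in every HFD library, summing to 332.7 to 473.7 CPM in HFD and 801.2 to 4340 CPM in CD libraries. All 8 erythroid markers averaged higher (12910, 38890 and 15070 CPM in HFD 2, HFD 3 and HFD 4, against 12910, 20700 and 6536 CPM in CD 1, CD 2 and CD 4). All 8 skeletal muscle markers averaged lower (23590, 5410 and 28030 CPM in HFD 2, HFD 3 and HFD 4, against 79900, 17880 and 13760 CPM in CD 1, CD 2 and CD 4). Transcripts of 12 intestinal epithelial genes, which bone should not make, summed to 160.1 to 233.2 CPM in the HFD libraries and 53.5, 27.9 and 166.7 CPM in CD 1, CD 2 and CD 4. Of these 12, Lypd8, Cdx1, Cdx2, Fabp2, Phgr1 and Slc26a3 were at 0 in at least 1 library.

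The levels of the 10 genes differed widely. By mean FPKM (length-scaled level) over the 6 libraries the order was B2m at 709, H2-D1 at 279, H2-K1 at 160, Tapbp at 26.0, Tap2 at 14.1, Psmb10 at 13.4, Psmb8 at 11.9, Tap1 at 8.93, Psmb9 at 7.48 and Nlrc5 at 2.35. Each gene was above the next in all 6 libraries, except Tap2 over Psmb10, which held in 4, and Psmb10 over Psmb8, which held in 5. The light chain and both heavy chains thus stood apart from the loading machinery, and the coactivator was the scarcest transcript per length. The order in between rests on the gene lengths behind FPKM. In counts Psmb8 was above Psmb10 in every library (3950 against 2429 in HFD 2). In summed normalised CPM (counts scaled to library size with TMM factors) the 10 genes had 2580, 2940 and 1916 in HFD 2, HFD 3 and HFD 4, against 1276, 2454 and 2090 in CD 1, CD 2 and CD 4. The group means of this sum were 2479 ± 519 CPM in HFD and 1940 ± 603 CPM in CD libraries (SD, n = 3 each), and B2m, H2-K1 and H2-D1 made up 84.3% to 87.9% of it. Unless another unit is named, levels below are normalised CPM, and each log2 fold change is HFD minus CD, given ± its SE.

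B2m encodes beta-2 microglobulin, the invariant light chain that every class I molecule needs to reach the cell surface. The gene lies at chr2:122147686-122153083 on the plus strand (GRCm38). It had 716.2, 891.5 and 560.8 CPM in HFD 2, HFD 3 and HFD 4, against 416.9, 660.2 and 617.8 CPM in CD 1, CD 2 and CD 4. The groups overlapped, since HFD 4 was below both CD 2 and CD 4. The means were 723 ± 165 CPM in HFD and 565 ± 130 CPM in CD libraries (SD, n = 3 each), a log2 fold change of 0.36 ± 0.35 with an edgeR adjusted p of 0.765.

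H2-K1 (chr17:33996017-34000347, minus strand) and H2-D1 (chr17:35262730-35267499, plus strand) encode the classical class I heavy chains of this strain, the parts that hold the peptide. H2-K1 had 577.8, 651.5 and 426.2 CPM in HFD 2, HFD 3 and HFD 4, against 239.6, 566.9 and 471.6 CPM in CD 1, CD 2 and CD 4. H2-D1 had 892.2, 956.4 and 627.7 CPM in HFD 2, HFD 3 and HFD 4, against 422.3, 880.6 and 747.6 CPM in CD 1, CD 2 and CD 4. Both genes ordered the libraries exactly as B2m did, with HFD 3 highest, CD 2 next below HFD 2 and CD 1 lowest, and both overlapped between diets. The log2 fold changes were 0.37 ± 0.40 for H2-K1 (edgeR adjusted p = 0.785) and 0.27 ± 0.40 for H2-D1 (edgeR adjusted p = 0.840). Without CD 1 they were 0.10 for H2-K1 and 0.03 for H2-D1.

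Heavy chains are encoded by related genes, and reads may be split between them where their sequence is shared. Of the 100-base stretches in the annotated transcripts, 0.957% of those of H2-K1 and 3.59% of those of H2-D1 also occurred in another gene, mostly H2-Q10 for H2-K1 and H2-Q1 for H2-D1. In each library the heavy chains kept a narrow ratio to the light chain, in FPKM. H2-K1 stood at 0.236, 0.214 and 0.222 of B2m in HFD 2, HFD 3 and HFD 4, against 0.168, 0.251 and 0.223 in CD 1, CD 2 and CD 4. H2-D1 stood at 0.415, 0.358 and 0.373 of B2m in HFD 2, HFD 3 and HFD 4, against 0.338, 0.445 and 0.404 in CD 1, CD 2 and CD 4. The difference of the log2 ratio was 0.08 for H2-K1 (exact two-sided permutation test, p = 0.9) and -0.04 for H2-D1 (exact, p = 0.8), within the spread between libraries. H2-K1 to B2m went to -0.08 without CD 1, and H2-D1 to B2m to 0.05 without CD 2 and to 0.0036 without HFD 3. With 3 libraries against 3 this test cannot give a p below 0.1.

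The upstream sequences of the light chain, the heavy chains and Tap1 are shown because class I promoters are known for a shared set of elements through which NLRC5, interferon and NF-kB act. Each line is the 250 bases before the RefSeq start, read in the direction of the gene (RefSeq, GRCm38.p6). They are B2m at chr2:122147437-122147686 (plus), the second of both H2-K1 records at chr17:34000334-34000583 (minus), H2-D1 at chr17:35262844-35263093 (plus) and Tap1 at chr17:34187306-34187555 (plus). Capitals mark every match, on either strand, to the interferon-stimulated response element core (GAAA, any 2 bases, GAAA), GAANNGAAA (a shorter interferon response core), TTCNNNGAA (GAS element), GGGATTCCC (NF-kB site), CCAAT (Y box) or TGACG (core of the CRE-like X2 box).
B2m: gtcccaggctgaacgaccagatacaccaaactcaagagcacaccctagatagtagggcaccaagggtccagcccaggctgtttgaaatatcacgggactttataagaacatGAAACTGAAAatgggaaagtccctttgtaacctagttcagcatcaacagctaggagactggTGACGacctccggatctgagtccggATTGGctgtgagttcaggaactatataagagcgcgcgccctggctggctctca
H2-K1: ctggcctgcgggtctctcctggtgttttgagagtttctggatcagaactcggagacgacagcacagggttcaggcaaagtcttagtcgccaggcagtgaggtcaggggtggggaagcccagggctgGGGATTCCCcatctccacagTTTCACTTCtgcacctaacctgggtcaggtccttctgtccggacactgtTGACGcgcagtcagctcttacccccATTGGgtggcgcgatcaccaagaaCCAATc
H2-D1: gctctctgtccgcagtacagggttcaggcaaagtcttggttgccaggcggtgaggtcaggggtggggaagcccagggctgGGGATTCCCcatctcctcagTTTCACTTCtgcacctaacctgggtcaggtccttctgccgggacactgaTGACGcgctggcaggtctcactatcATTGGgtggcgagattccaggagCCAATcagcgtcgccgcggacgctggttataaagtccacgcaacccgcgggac
Tap1: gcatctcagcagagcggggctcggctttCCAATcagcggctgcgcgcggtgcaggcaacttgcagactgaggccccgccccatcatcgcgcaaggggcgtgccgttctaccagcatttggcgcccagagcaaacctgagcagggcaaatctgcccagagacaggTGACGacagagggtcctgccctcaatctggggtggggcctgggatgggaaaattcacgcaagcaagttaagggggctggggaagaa

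In the printed stretches B2m holds GAAACTGAAA from 139 to 130 bases before the start. H2-K1 holds GGGATTCCC at 124 to 116 and TTTCACTTC at 104 to 96 bases before the start, and H2-D1 holds the same pair at 170 to 162 and 150 to 142 bases before it. The heavy chain stretches were alike beyond these elements, with 177 of 203 aligned bases identical (87.2%) and an identical run of 47 bases. The promoter of Tap1 is also that of Psmb9, which runs the other way, and the 300-base windows of both genes overlap by 275 bases at chr17:34187306-34187580.

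The RefSeq table matched 8 of the 10 genes, with 9 windows of 300 bases, 250 before and 50 after a start (H2-K1 has a pair), and had no entry for Tap2 and Nlrc5. The interferon-stimulated response element core occurred in 1 of the 9 windows and in 3.44% of all 32851 promoter windows of that length. GAANNGAAA occurred in 3 of the 9 (both of H2-K1 and that of H2-D1) and in 7.52% of all, and a match to one of these motifs need not hold the other. TTCNNNGAA occurred in 1 of the 9 (Psmb8) and in 8.3% of all. GGGATTCCC, again in both of H2-K1 and that of H2-D1, was in 0.353% of all windows. CCAAT was in 7 of the 9 and 37.4% of all, and TGACG in 6 of the 9 and 20.8% of all. The windows of H2-K1 overlap, as do those of Tap1 and Psmb9, so the same sites recur in these counts. The motifs were also chosen as known elements of class I promoters. These letters are a description of the sequence, not binding sites.

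**Figure D1:**
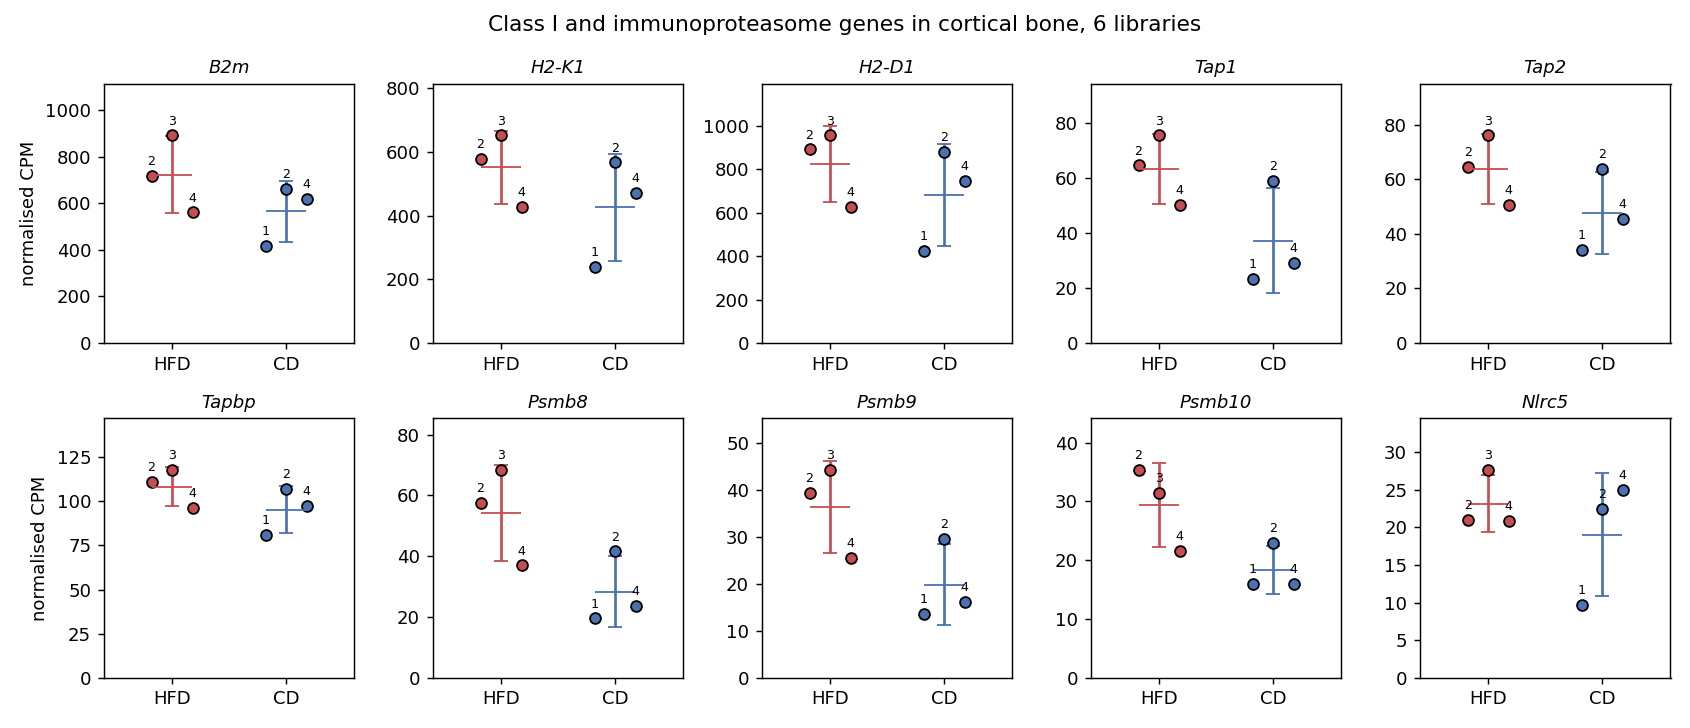
Normalised CPM of the 10 genes in each library (points, numbered by replicate), with the mean and SD of 3 HFD (red) and 3 CD (blue) libraries; every axis starts at 0. HFD 2 and HFD 3 sit above all CD libraries for 9 genes, HFD 4 sits below CD 2 for all 10, and CD 1 is lowest for 9.

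Tap1 and Tap2 encode the subunits of the peptide transporter of the endoplasmic reticulum. Tap1 (chr17:34187553-34197225, plus strand) had 64.6, 75.5 and 50.2 CPM in HFD 2, HFD 3 and HFD 4, against 23.4, 58.9 and 29.1 CPM in CD 1, CD 2 and CD 4. Only CD 2 reached into the HFD range. The log2 fold change was 0.77 ± 0.38 (1.71-fold, edgeR adjusted p = 0.561), and it was 1.27 without CD 2 and 0.55 without CD 1.

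Tap2 (chr17:34203527-34216321, plus strand), the partner without which TAP1 makes no transporter, had 64.6, 76.0 and 50.4 CPM in HFD 2, HFD 3 and HFD 4, nearly the same as Tap1. In CD 1, CD 2 and CD 4 it had 33.9, 63.7 and 45.6 CPM. The CD libraries were therefore higher for Tap2 than for Tap1, and the log2 fold change was smaller, 0.42 ± 0.29 (edgeR adjusted p = 0.678). The difference between both genes was not tested.

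Tapbp (chr17:33915899-33926197, plus strand) encodes tapasin, which holds empty class I molecules at the transporter. It had 111.2, 117.7 and 96.2 CPM in HFD 2, HFD 3 and HFD 4, against 80.8, 107.1 and 97.7 CPM in CD 1, CD 2 and CD 4. Tapbp varied least of the 10 genes, with 1.46-fold between its highest and lowest library, and its log2 fold change was 0.19 ± 0.22 (edgeR adjusted p = 0.806).

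Psmb8 encodes LMP7 (beta-5i), the immunosubunit with chymotrypsin-like activity, which favours peptides with the C-terminal residues class I prefers. It lies next to Tap1 and Tap2 in the MHC at chr17:34197721-34201454 (plus strand). It had 57.4, 68.3 and 37.0 CPM in HFD 2, HFD 3 and HFD 4, against 19.5, 41.5 and 23.6 CPM in CD 1, CD 2 and CD 4. HFD 4 stood above CD 1 and CD 4 but below CD 2. The means were 54.2 ± 15.9 CPM in HFD and 28.2 ± 11.7 CPM in CD libraries (SD, n = 3 each), the largest difference of the 10 at 1.92-fold. The log2 fold change was 0.94 ± 0.36, with an edgeR p of 0.0335 and an adjusted p of 0.476.

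Psmb9 (chr17:34181987-34187764, minus strand) encodes LMP2 (beta-1i), which takes the place of the caspase-like subunit. It had 39.3, 44.1 and 25.5 CPM in HFD 2, HFD 3 and HFD 4, against 13.6, 29.6 and 16.2 CPM in CD 1, CD 2 and CD 4. The libraries stood in the same order as for Psmb8. The log2 fold change was 0.88 ± 0.36 (1.83-fold), with an edgeR p of 0.0435 and an adjusted p of 0.505.

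Psmb10 (chr8:105935735-105938104, minus strand) encodes MECL-1 (beta-2i), the trypsin-like immunosubunit, and is the one of these subunits encoded outside the MHC. It had 35.3, 31.4 and 21.5 CPM in HFD 2, HFD 3 and HFD 4, against 16.0, 22.98 and 16.0 CPM in CD 1, CD 2 and CD 4. Here HFD 2, not HFD 3, was highest, and CD 4 was lowest by a margin of less than 1 CPM. The log2 fold change was 0.68 ± 0.27 (1.61-fold), with an edgeR p of 0.0386 and an adjusted p of 0.489.

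Nlrc5 (chr8:94434356-94527272, plus strand) encodes the class I transactivator. It had 21.0, 27.6 and 20.9 CPM in HFD 2, HFD 3 and HFD 4, against 9.65, 22.5 and 24.9 CPM in CD 1, CD 2 and CD 4. It departed from the other members in that CD 4 was second highest, so that HFD 2 as well as HFD 4 stood below CD 2 and CD 4. Its log2 fold change of 0.28 ± 0.36 (edgeR adjusted p = 0.818) turned to -0.03 without CD 1. The class I genes and their coactivator therefore did not hold the same order of libraries in CD 4.

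**Figure D2:**
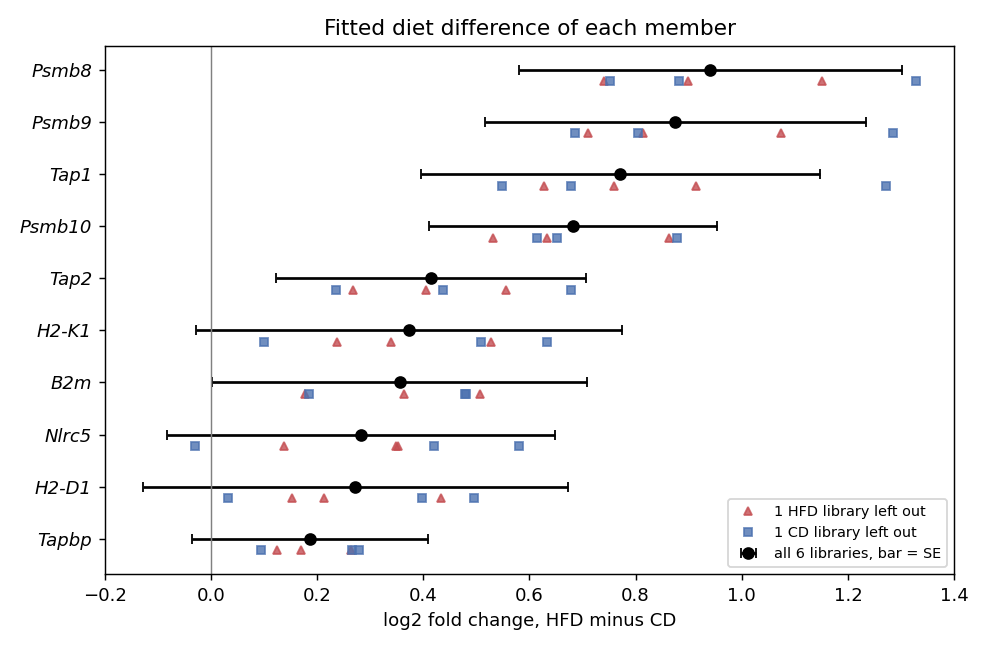
Log2 fold change, HFD minus CD, of each gene in edgeR with its SE (black), and the estimate with 1 HFD library (red triangles) or 1 CD library (blue squares) left out. Psmb8, Psmb9, Tap1 and Psmb10 stay above 0.5 throughout, and Nlrc5 is the one gene with an estimate below 0, without CD 1.

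The spread among the 10 genes was mostly shared between them. No gene had groups that did not overlap (0 of 10), beside 4.97% of all tested genes with every HFD library above every CD library and 10.2% with every one below. HFD 4 stood below CD 2 for 10 of 10 genes and below CD 4 for 5. Every HFD library was above CD 4 for the other 5, as for 31.4% of all tested genes. HFD 2 and HFD 3 were both above every CD library for 9 genes, all but Nlrc5, as were 13.4% of all tested genes. CD 1 was lowest for 9 genes, all but Psmb10, as were 22.5% of all. The absence of a separated gene thus rested on HFD 4 and CD 2: without HFD 4, 9 of the 10 had groups that did not overlap. Without CD 2, 5 did, Tap1, Tap2, Psmb8, Psmb9 and Psmb10, beside 17.4% of all tested genes with HFD above CD in those libraries. As a share of all counts, with no scaling, the 10 genes took 0.326%, 0.375% and 0.159% in HFD 2, HFD 3 and HFD 4, against 0.0817%, 0.304% and 0.197% in CD 1, CD 2 and CD 4. No gene was separated on that scale or when scaled to nonmitochondrial counts.

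The same libraries were set apart by their mitochondrial share. HFD 2, HFD 3 and CD 2, with 15.3% to 15.6% mitochondrial counts, were above HFD 4, CD 1 and CD 4 for 9 of the 10 genes (Nlrc5 was the exception), as were 14.3% of all tested genes. Within the low-mitochondrial libraries HFD 2 and HFD 3 were both above CD 2 for 9 genes, beside 29.4% of all, and the difference in log2 CPM was 0.07 to 0.59 with a median of 0.19. Within the other libraries HFD 4 was above both CD 1 and CD 4 for 5 genes, Tap1, Tap2, Psmb8, Psmb9 and Psmb10, beside 27.7% of all. The difference there was 0.11 to 0.94 with a median of 0.39. All 10 differences were above 0 on both sides, taken against CD 2 alone and against the mean of CD 1 and CD 4. HFD 4 was nonetheless below CD 4 for 5 genes, and the matching share over all genes is not given. With this division as a block in edgeR, the log2 fold changes were 0.09 to 0.69 with a median of 0.22 and a smallest adjusted p of 0.530. Psmb8 at 0.69, Psmb9 at 0.63 and Tap1 at 0.59 were again largest. The part of the mitochondrial share in these results was not tested.

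The constitutive catalytic subunits, which the immunosubunits replace, had a median log2 fold change of -0.04 in edgeR with TMM. The sign rested on scaling and on CD 1: the median was 0.31 without scaling factors, 0.28 with limma, 0.30 without CD 1, 0.36 with the replicate number as a block and 0.37 within HFD 2, HFD 3, HFD 4 and CD 4. Psmb5, the constitutive partner of Psmb8, had 67.0, 51.3 and 55.9 CPM in HFD 2, HFD 3 and HFD 4, against 83.2, 50.6 and 44.9 CPM in CD 1, CD 2 and CD 4. Psmb6, replaced by Psmb9, had a log2 fold change of -0.13 ± 0.28, and Psmb7, replaced by Psmb10, one of 0.06 ± 0.36, beside -0.04 ± 0.29 for Psmb5. CD 1, which was lowest for Psmb8 and Psmb9, was the highest library for all 3 constitutive genes. Psmb5 shares 21.1% of its 100-base stretches with the copy Gm3375, which had 59 to 121 counts per library.

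The ratio of immunosubunit to constitutive subunit within a library needs no scaling between libraries. In FPKM, Psmb8 stood at 0.228, 0.354 and 0.176 of Psmb5 in HFD 2, HFD 3 and HFD 4, against 0.0622, 0.218 and 0.140 in CD 1, CD 2 and CD 4. Psmb9 stood at 0.304, 0.434 and 0.238 of Psmb6 in HFD 2, HFD 3 and HFD 4, against 0.0802, 0.271 and 0.174 in CD 1, CD 2 and CD 4. Both pairs ordered the libraries alike, with CD 2 above HFD 4. The difference of the log2 ratio, HFD minus CD, was 0.97 for Psmb8 to Psmb5 and 1.02 for Psmb9 to Psmb6 (exact two-sided permutation test, p = 0.2 each, 0.5 adjusted over the 5 ratios).

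Psmb10 stood at 0.709, 0.936 and 0.469 of Psmb7 in HFD 2, HFD 3 and HFD 4, against 0.251, 0.686 and 0.594 in CD 1, CD 2 and CD 4. In FPKM this ratio was higher than the other immunosubunit ratios in every library, and here CD 4 also stood above HFD 4. In counts the same ratio was the lowest in every library. In HFD 2 its log2 count ratio was -1.50, beside -0.22 for Psmb8 to Psmb5 and -0.75 for Psmb9 to Psmb6. The ranking of the pairs thus rests on the gene lengths behind FPKM. The log2 difference was 0.54 (exact two-sided permutation test, p = 0.4, adjusted 0.667). The constitutive transcript was the more abundant of each pair per length in all 6 libraries. In counts this also held, except that Psmb8 exceeded Psmb5 in HFD 3 (log2 count ratio 0.41). Without CD 1 the log2 differences were at their lowest of the leave-one-out values, 0.47 for Psmb8 to Psmb5, 0.54 for Psmb9 to Psmb6 and 0.09 for Psmb10 to Psmb7.

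**Figure D3:**
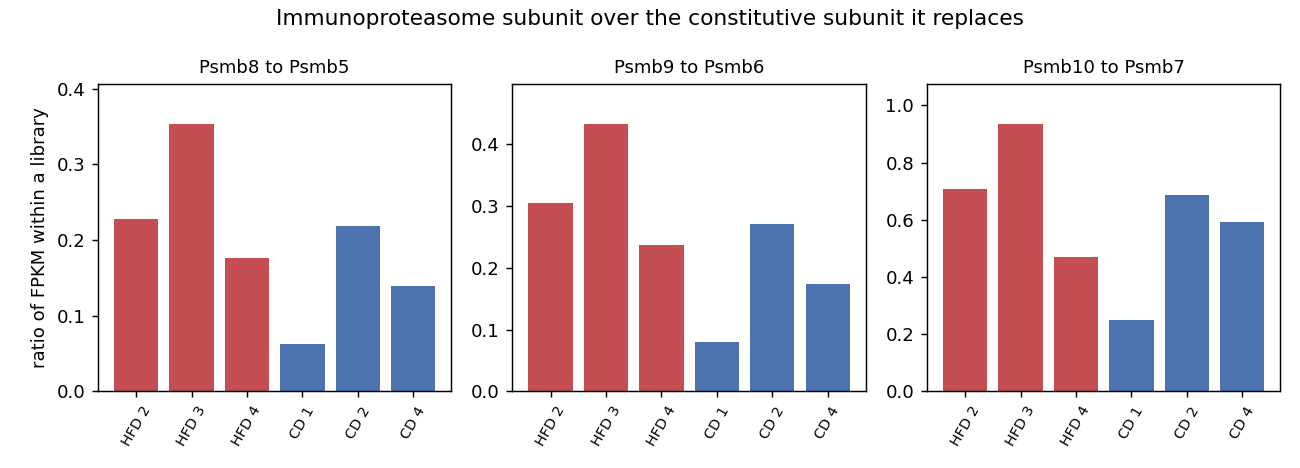
Ratio of FPKM of each immunosubunit to the constitutive subunit it replaces, 1 bar per library (red HFD, blue CD), with axes from 0. HFD 3 is highest and CD 1 lowest in each panel, and CD 2 stands above HFD 4 in all 3.

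Leukocyte transcripts moved with the 10 genes, and in bulk tissue fewer cells of a type and less RNA per cell cannot be told apart. Ptprc, which encodes the pan-leukocyte phosphatase CD45, had 228.8, 267.2 and 174.0 CPM in HFD 2, HFD 3 and HFD 4, against 115.1, 211.3 and 118.7 CPM in CD 1, CD 2 and CD 4. Its log2 fold change was 0.59 ± 0.34 (edgeR adjusted p = 0.601), larger than that of 6 of the 10 genes. The 4 leukocyte markers, all higher on average in HFD libraries, summed to 698.5 to 1235 CPM in HFD and 448.2 to 957.9 CPM in CD libraries. Of 10 neutrophil markers 9 averaged higher (6685 to 13640 CPM in HFD and 4396 to 13330 CPM in CD libraries), and of 10 monocyte and macrophage markers 6 (433.6 to 639.3 CPM in HFD and 401.0 to 634.6 CPM in CD libraries). All 8 B cell markers averaged higher, with 272.6 to 559.5 CPM in HFD and 70.8 to 292.2 CPM in CD libraries, as did 9 of 10 T and NK cell markers with 52.2 to 103.1 CPM in HFD and 21.7 to 81.7 CPM in CD libraries. Of 8 dendritic cell markers 6 averaged higher, with 49.2 to 96.3 CPM in HFD and 28.0 to 58.9 CPM in CD libraries. No gene of these lists was at 0 in any library, and none passed the edgeR test after adjustment. DESeq2 called 3 of them higher, the dendritic cell genes Batf3 (adjusted p = 0.00158) and Itgax (adjusted p = 0.0214) and the B cell gene Vpreb3 (adjusted p = 0.0237). All 12 intestinal markers also averaged higher. The part of these cells in the results was not tested.

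Taken per Ptprc count in the same library, the 10 genes showed separate patterns. The log2 count ratio of Psmb8 to Ptprc was -1.995, -1.97 and -2.24 in HFD 2, HFD 3 and HFD 4, against -2.56, -2.35 and -2.33 in CD 1, CD 2 and CD 4. That of Psmb9 was -2.54, -2.60 and -2.77 in HFD 2, HFD 3 and HFD 4, against -3.08, -2.84 and -2.88 in CD 1, CD 2 and CD 4. That of Tap1 was -1.82, -1.82 and -1.80 in HFD 2, HFD 3 and HFD 4, against -2.30, -1.84 and -2.03 in CD 1, CD 2 and CD 4. These 3 genes were above CD in every HFD library on this scale, as were 1.21% of 18521 genes, though the Tap1 margin over CD 2 was small. Tap2 was below CD in every HFD library (mean log2 ratio -1.81 in HFD and -1.62 in CD libraries), as were 19.8% of genes. The Tap2 margin was small too, with HFD 4 at -1.79 and CD 1 at -1.76.

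The other 6 genes overlapped per Ptprc count. The light chain and heavy chains were lower on average, by log2 differences of -0.27 for B2m, -0.19 for H2-K1 and -0.31 for H2-D1. Tapbp differed by -0.44, Nlrc5 by -0.24 and Psmb10 by 0.05. CD 4 stood highest of all libraries for B2m, H2-K1, H2-D1, Tap2, Tapbp and Nlrc5 on this scale. This ratio was added after the levels had been seen and carries no test.

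**Figure D4:**
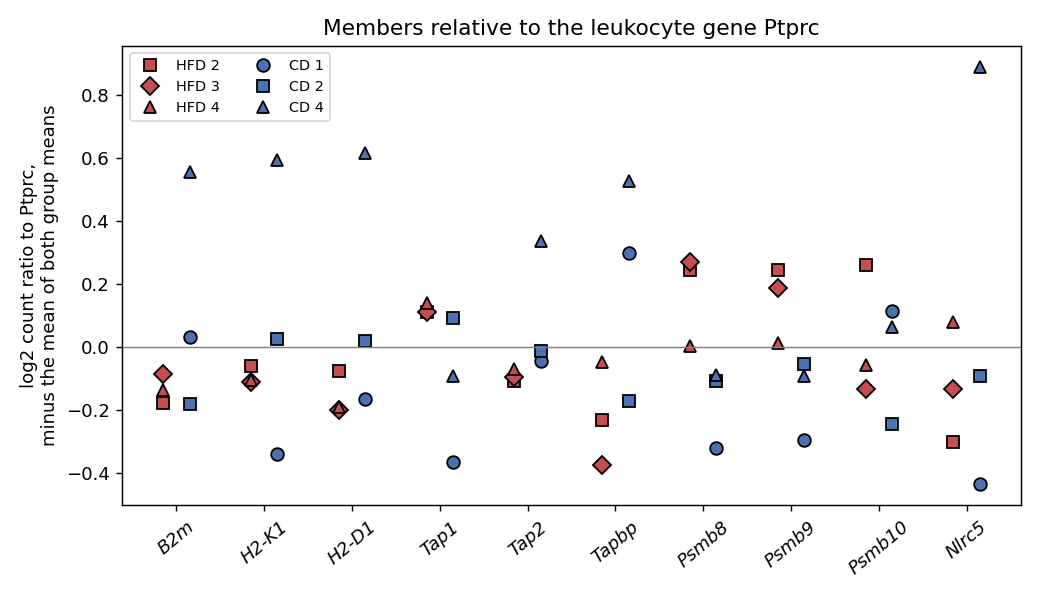
Log2 ratio of each gene's count to the Ptprc count in the same library (points, red HFD and blue CD), minus the mean of both group means of that gene, so that 0 is midway between the diets. Every HFD library is above every CD library for Tap1, Psmb8 and Psmb9, and CD 4 is the highest point for 6 genes.

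Further genes of the pathway are given by list, and edgeR's adjusted p called 0 genes in each of these lists. Of 17 other class I heavy chains, nonclassical ones included, 14 had a log2 fold change above 0 and 3 below, with a median of 0.43. Leaving out CD 1 or HFD 3 lowered it to 0.26 or 0.27, leaving out CD 2 gave 0.67, and the replicate number as a block gave 0.03. H2-Q2, H2-T3 and H2-M2, which are among the 14, were at 0 in at least 1 library. H2-Q6 and H2-Q4, the most abundant by mean FPKM, had log2 fold changes of 0.43 ± 0.39 and 0.03 ± 0.37. H2-T23, the highest in CPM, encodes Qa-1 and had 123.3, 154.9 and 97.7 CPM in HFD 2, HFD 3 and HFD 4, against 57.1, 101.9 and 68.7 CPM in CD 1, CD 2 and CD 4 (0.72 ± 0.30, edgeR adjusted p = 0.516). Mr1, whose product shows microbial vitamin metabolites to MAIT cells, ran against the list. It had 7.35, 6.50 and 11.0 CPM in HFD 2, HFD 3 and HFD 4, against 22.9, 9.65 and 19.1 CPM in CD 1, CD 2 and CD 4. Its log2 fold change was -1.06 ± 0.38, with an edgeR p of 0.0252 and an adjusted p of 0.472. Cd1d1 was lower still, at -1.62 ± 0.70 (edgeR adjusted p = 0.518), with 65.7 CPM in CD 4 and 7.86 to 21.6 CPM elsewhere.

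Peptide trimming and loading, a step that shares chaperones with general protein folding, was mixed. Of its 9 genes 4 were above and 5 below 0, and the median log2 fold change of -0.30 was -0.08 without scaling factors, 0.01 with limma and 0.02 without CD 4. The chaperones Calr and Hspa5, the most abundant of the list by mean FPKM, had -0.30 ± 0.30 and -0.40 ± 0.29. Uggt1, which returns misfolded glycoproteins to the folding cycle, had 60.7, 57.5 and 59.6 CPM in HFD 2, HFD 3 and HFD 4, against 78.1, 79.6 and 76.4 CPM in CD 1, CD 2 and CD 4, so that every HFD library was below every CD library (-0.40 ± 0.18, edgeR adjusted p = 0.542). Tapbpl, which encodes the peptide editor TAPBPR, had 10.7, 16.3 and 11.1 CPM in HFD 2, HFD 3 and HFD 4, against 7.72, 8.77 and 9.07 CPM in CD 1, CD 2 and CD 4. Its groups did not overlap either, with HFD above CD, at a log2 fold change of 0.57 ± 0.26 (edgeR adjusted p = 0.530).

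Other genes of the proteasome mostly had log2 fold changes above 0, and no test set them against the immunosubunits. All 11 other subunits of the 20S core had log2 fold changes above 0, from 0.11 to 0.47 with a median of 0.24, which was 0.14 without CD 4 and 0.43 without CD 1. Among them Psma6 had 0.16 ± 0.28, Psmb4 0.22 ± 0.24 and Psma5 0.47 ± 0.21. Of the 9 activator and assembly genes 8 were above 0, with a median of 0.33, or 0.18 without CD 4. Psme1 and Psme2 encode PA28 alpha and beta, the interferon-inducible cap of the proteasome. Psme1 had 74.7, 80.3 and 57.8 CPM in HFD 2, HFD 3 and HFD 4, against 46.1, 59.8 and 37.9 CPM in CD 1, CD 2 and CD 4, a log2 fold change of 0.56 ± 0.25 (edgeR adjusted p = 0.527). CD 2 exceeded HFD 4 here too. Psme2 had 0.47 ± 0.30, Psme3, the nuclear cap, 0.33 ± 0.31, and Pomp, the assembly chaperone of new proteasomes, 0.20 ± 0.25.

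The transcription factors that act on class I genes were mixed, 12 of 19 above and 7 below 0 with a median of 0.17, or 0.055 without HFD 3. Irf7, a regulator of type I interferon responses and itself interferon-induced, had 45.2, 42.0 and 37.3 CPM in HFD 2, HFD 3 and HFD 4, against 17.8, 27.3 and 14.3 CPM in CD 1, CD 2 and CD 4. Its groups did not overlap, and its log2 fold change of 1.07 ± 0.28 had an edgeR p of 0.00591 and an adjusted p of 0.466, which no tested gene went below. The DESeq2 adjusted p was 0.0616.

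Irf1, which binds interferon response elements of class I genes, ran the other way, with 57.4, 55.1 and 51.1 CPM in HFD 2, HFD 3 and HFD 4, against 42.3, 88.7 and 70.1 CPM in CD 1, CD 2 and CD 4. The HFD libraries lay inside the CD range (-0.30 ± 0.29, edgeR adjusted p = 0.761). The NF-kB subunit Rela had 0.10 ± 0.20. The RFX complex, to which NLRC5 attaches, had -0.07 ± 0.26 for Rfx5, -0.27 ± 0.28 for Rfxap and -0.02 ± 0.21 for Rfxank. Ciita, the class II counterpart of Nlrc5, had 0.88 ± 0.66.

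Of 12 listed interferon ligands, receptors and kinases 11 were in the table, 4 above and 7 below 0 with a median of -0.04 in edgeR with TMM, 0.03 with upper quartile scaling, 0.19 without scaling factors and 0.23 with limma. Leaving out 1 library gave -0.08 to 0.09. Ifng, the cytokine that most strongly induces this pathway, had only 0.145 to 0.519 CPM in HFD and 0.0508 to 0.481 CPM in CD libraries. It had 2 counts in CD 1 and 10 to 33 in the other libraries. At these low counts no difference was detected (-0.28 ± 0.93, edgeR adjusted p = 0.934). The receptor chain Ifngr1 had -0.04 ± 0.22. Socs3, a feedback inhibitor of cytokine signalling, had -1.01 ± 0.42 (edgeR adjusted p = 0.510). Usp18, an interferon-induced inhibitor of the type I receptor, had 9.31, 7.74 and 7.20 CPM in HFD 2, HFD 3 and HFD 4, against 4.11, 6.46 and 3.49 CPM in CD 1, CD 2 and CD 4. Its groups did not overlap, at 0.79 ± 0.32 (edgeR adjusted p = 0.506).

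On the receiving side, 11 receptors of T, NK and myeloid cells were listed, most of them for class I or related ligands. All 11 had log2 fold changes above 0, with a median of 0.76. It was 0.37 without HFD 3, 1.13 without CD 2 and 0.21 with the replicate number as a block. The inhibitory receptors Lilrb4a and Pirb, the most abundant by mean FPKM, had 0.12 ± 0.31 and 0.51 ± 0.37. Klra2, of the Ly49 family, had 1.18 ± 0.53 (edgeR adjusted p = 0.530). None of the 11 had groups that did not overlap.

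The genes most like the 10 in their library profile were sought among 11414 other protein-coding genes with a mean FPKM of at least 1. The measure was the root mean square difference from the mean centred log2 CPM profile over the 6 libraries, which weighs size, not order alone. That profile was 0.36, 0.54 and -0.06 in HFD 2, HFD 3 and HFD 4, against -0.77, 0.18 and -0.25 in CD 1, CD 2 and CD 4. The nearest were Tex30 at 0.045, Gsdmd, the pore-forming effector of pyroptosis, at 0.055, Nudt1, which hydrolyses oxidised nucleotides, at 0.068, Sh3bp2, an adaptor of immune receptors, at 0.079, and Pot1b, a telomere-binding protein, at 0.081. The median over these genes was 0.521. The members themselves lay between 0.068 (Tap2) and 0.288 (Nlrc5), so several other genes followed the shared profile more closely than most members did. Gsdmd, for instance, had 42.1, 47.7 and 30.1 CPM in HFD 2, HFD 3 and HFD 4, against 19.9, 38.0 and 30.0 CPM in CD 1, CD 2 and CD 4. These distances are over 6 libraries that share scaling and depth, and are a description.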

How the data were processed

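The authors extracted RNA, selected polyadenylated mRNA and sequenced strand-marked libraries in pairs with molecular identifiers. The tissue is cortical bone in the labels, bone particles in the paper's results and marrow cells in its methods. The authors deposited gene counts and FPKM values (counts scaled by gene length and library size) for each library in 1 table. Among the tools listed, with no role, in the submitters' processing notes are StringTie 1.3.4d, HISAT2 2.0.4, edgeR, DESeq2, cutadapt 1.9 and UMI-tools. A different aligner and counter stand in the paper's methods, and no source used here gives the strand setting. If counting ignored strand, reads of Tapbp, Psmb8 and Tap2 cannot be told from those of the antisense genes Gm19412 (2 to 24 counts), Gm20496 (0 to 2) and Gm15821 (16 to 53), nor those of Psmb9 and Tap1 from each other where they overlap.

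Groups came from the labels. Counts of 54.5 to 61.6 M (mega-counts) per library were tested with edgeR 4.0.16 (quasi-likelihood test with no covariate, TMM factors, filterByExpr at a minimum count of 10), with Benjamini-Hochberg adjustment over 19831 genes and a threshold of 0.05, in R 4.3.3, HFD against CD. The procedure was tested on simulated data. DESeq2 1.42.0, limma 3.58.1 on log2(FPKM + 1) with an FPKM of at least 0.5 in 3 libraries, other scalings and filters, a replicate block, a mitochondrial block and leaving out each library were the alternatives. Within-library ratios were compared by exact two-sided permutation tests. The Ptprc ratio and the scaling to nonmitochondrial counts were added after seeing the data. Shared sequence was counted as 100-base stretches of GENCODE M21 transcripts. The motifs were chosen for known class I promoter elements.

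The members and gene lists were chosen with earlier results of these data known. Genes named are the 10 members, Psmb5, Psmb6, Psmb7, Psme1, Psme2, Pomp, Irf1, Rfx5, Rfxap, Rfxank, Ciita and Ptprc, the 2 most abundant genes and the gene with the smallest p of each pathway list, and the 5 nearest genes by library profile. One further gene of this rule is not reported here. Ifng, Uggt1, H2-T23, Cd1d1 and the markers called by DESeq2 were named after their values were seen. So were the leukocyte markers beside Ptprc and the heavy chain and intestinal genes at 0.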

Additional observations from a re-analysis of the deposited data

How the results depend on the processing

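None of the 10 genes was called under any of the 16 alternatives. Their median log2 fold change was 0.39 with edgeR, 0.42 with DESeq2, 0.60 without scaling factors, 0.69 and 0.72 with limma on log2(FPKM + 1) and log2(FPKM + 0.1), and 0.21 to 0.66 with 1 library left out. Without scaling the median of all genes moved to 0.24, and with limma to 0.19 and 0.27, so relative to all genes the members' medians were 0.36, 0.49 and 0.45, beside 0.43 with TMM. Over all genes DESeq2 called 342, limma 10 with a pseudocount of 1 and 7 with 0.1, edgeR 0, and edgeR with 1 library left out 0 to 24, the 24 coming without CD 4. The number of members with groups that did not overlap was 0 to 9 with 1 library left out and 5, beside 31.4% of all tested genes, within HFD 2, HFD 3, HFD 4 and CD 4, the libraries that hold most intestinal transcripts, where the lone CD library was assumed to vary like the others. Nlrc5 was at -0.11 in those libraries and at -0.030 to 0.58 with 1 library left out. The log2 ratio of H2-K1 to B2m was -0.081 to 0.21 and that of H2-D1 to B2m -0.15 to 0.047 with 1 library left out. The cause of these shifts was not tested. Of 128 medians of the pathway lists under these alternatives, 109 moved by less than the spread between libraries. Scaling to nonmitochondrial counts, chosen after seeing the data, gave a members' median of 0.55.

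The labels do not say what the replicate numbers shared between the diets, 2 and 4, stand for. Deviations from the group means correlated at -0.16 for number 2 and 0.18 for number 4 across genes. Libraries of unlike number gave -0.36 to 0.45, so these correlations cannot settle whether equal numbers mark a pair. With the number as a block, which leaves the diet term to HFD 2, HFD 4, CD 2 and CD 4, the members' median was 0.05, and B2m (-0.011), H2-K1 (-0.059), H2-D1 (-0.12) and Nlrc5 (-0.18) were below 0, with the other 6 above. The block called 0 genes, the smallest adjusted p of a member being 0.283.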
